A study of Mus musculus with 40 samples.

Results

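All nuclei of the right kidney 24 h after removal of the left kidney were compared with all nuclei of sham-operated mice. The members were every nucleus of the 2 nephrectomised (UNx) and 2 sham mice in the deposited single-nucleus table, 16500 nuclei in all. These 4 mice are 4 of the 40 samples of the series, and the rest of it is bulk RNA-seq of other mice. Every mouse was a male C57BL/6 of 8-12 weeks. In the UNx group the left kidney had been taken out and the right one was collected 24 h later. In the sham group the operation left both kidneys in place, and the right one was collected at the same time. Nuclei were freed from a section of kidney in EZ lysis buffer, cleaned over sucrose, sorted on DAPI, a DNA stain, and read with a 10x Genomics 3' droplet kit. By the labels, sham 1 and UNx 1 form batch 3 and sham 2 and UNx 2 form batch 4, so each batch holds 1 mouse of either group. What a batch is, the labels do not say.

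After the loss of a kidney the remaining one enlarges, mostly by growth of its proximal tubule cells, and raises its filtration, reabsorption and metabolism. The proximal tubule takes back most of the filtered salt, glucose, amino acids and phosphate in its successive segments S1, S2 and S3, burns fatty acids for that work and makes glucose. Nuclei hold young, often unspliced transcripts, whereas bulk kidney RNA is mostly mature RNA of the cytoplasm, so the readouts weigh transcription and RNA stability differently.

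The sham mice gave 5342 and 2641 nuclei and the UNx mice 5151 and 3366, with 35.5 to 49.6 M estimated UMI counts per mouse, where a UMI stands for 1 captured RNA molecule. The batches differed more than the groups in several measures. The highest UMI total of a nucleus was 28431 and 31794 in batch 3 (sham and UNx) and 100017 and 87338 in batch 4. The median share of mitochondrial UMI per nucleus was 0.608% and 1.02% in batch 3 and 5.13% and 7.47% in batch 4, and no batch 3 nucleus exceeded 5%. Nuclei of the 2 batches thus entered the table with different upper limits. Of the 16482 distinct cell barcodes, 18 occurred in more than 1 library. For 26 of the 29 annotated classes with a marker list, their own list was the most enriched in the class, and the exceptions were DTL3-ATL, ATL and Per.

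The first question was which genes differed in level over the whole kidney's nuclei. Counts were summed over all nuclei of a mouse and are given as CPM (counts scaled to a common library total), so that each mouse is 1 replicate and n = 2 per group. With the group as the only term, edgeR called 0 of 19975 genes at an adjusted p under 0.05 (0%), and 360 (1.8%) had an unadjusted p under 0.05. DESeq2 called 25 and limma voom 0. With the labelled batch as a block, so that each UNx mouse was set against the sham mouse of its batch, edgeR called 207 genes (1.04%), 100 of them higher (0.501%) and 107 lower (0.536%) after nephrectomy. In that fit 3090 genes had an unadjusted p under 0.05. Without TMM factors, which set the scale between libraries, the block gave 781 calls with 246 higher and 535 lower, and without adipocyte nuclei 106 with 45 higher and 61 lower. With at least 50 counts in every mouse of 1 group it gave 41, with 10 higher and 31 lower. Of the 24 genes named by rule, the 12 falls kept their call in both of the last settings, whereas 9 of the 12 rises kept it without adipocyte nuclei and 3 (Rbsn, Slc25a25 and G0s2) with the count minimum. Of the 30 calls on gene lists, 19 were kept without adipocyte nuclei and 12 with the count minimum. The 25 DESeq2 calls were all among these 207. All 207 had the same direction in both batches, beside 63.0% of all genes. The fit with the block favours genes whose differences within the batches agree, so this is no separate evidence. For 148 of the 207 both UNx mice lay outside the range of both shams. Over all genes, both UNx mice lay above both shams for 2137 genes (10.7%) and below them for 2104 (10.5%). The planned fit had the group as its only term, and the block was set down as an alternative to it. In the planned edgeR fit 0 of these 207 genes were called, and Cish, Keg1 and Cd36 each had an adjusted p of 0.999986. Below, "rose" and "fell" mean a call of edgeR with the batch as a block, and adjusted p values are from that fit unless another is named. Per gene the fit with the block leaves 1 residual degree of freedom among mice, so the spread is mostly borrowed from other genes.

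The falls with the lowest adjusted p included genes of growth hormone and insulin signalling. Cish encodes an inhibitor that STAT5 switches on and that damps cytokine and growth hormone receptors. It read 47.0 and 49.3 CPM in the sham mice and 9.87 and 8.98 CPM in the UNx mice. The groups did not overlap, and the log2 fold change was -2.35 ± 0.11 (SE) with the block (adjusted p = 0.0038). Cish spans chr9:107296026-107302784 on the plus strand of GRCm38. Socs2, a related brake on the growth hormone receptor, read 40.0 and 59.8 CPM in sham and 15.3 and 15.8 CPM in UNx, a log2 fold change of -1.65 ± 0.14 (adjusted p = 0.0180). Irs2, an adaptor of the insulin and IGF1 receptors, read 68.3 and 67.5 CPM in sham and 20.4 and 22.3 CPM in UNx, with a log2 fold change of -1.67 ± 0.09 (adjusted p = 0.0044). The 2 mice of each group lay close together for Cish and Irs2 despite the difference in batch. Both genes were named by a low p, which favours genes whose mice lie close within a group, so this is no separate evidence.

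Other members of the JAK-STAT5 and growth hormone list did not pass. Of its 21 tested members 3 fell (Cish, Socs2 and Irs2) and 0 rose, beside 0.536% and 0.501% of all genes. This list and those below were drawn up with earlier results of these data known, so such counts beside all genes are descriptions and no test of a list. Without regard to the test, 7 lay lower and 5 higher than both shams, beside 10.5% and 10.7% of all genes. The median log2 fold change was -0.12, beside -0.01 over all genes. Bcl6, a repressor of STAT5 targets, read 58.2 and 70.6 CPM in sham and 175 and 110.7 CPM in UNx (adjusted p = 0.0775), and in 24 h bulk kidney its log2 fold change was -1.72 ± 0.57 (adjusted p = 0.0356). The receptor gene Ghr read 3884 and 4131 CPM in sham and 5285 and 4550 CPM in UNx, with no call (adjusted p = 0.336). Igfbp3, a carrier of IGF1, read 23.1 and 19.4 CPM in sham and 13.9 and 12.9 CPM in UNx (adjusted p = 0.0692).

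**Figure D1:**
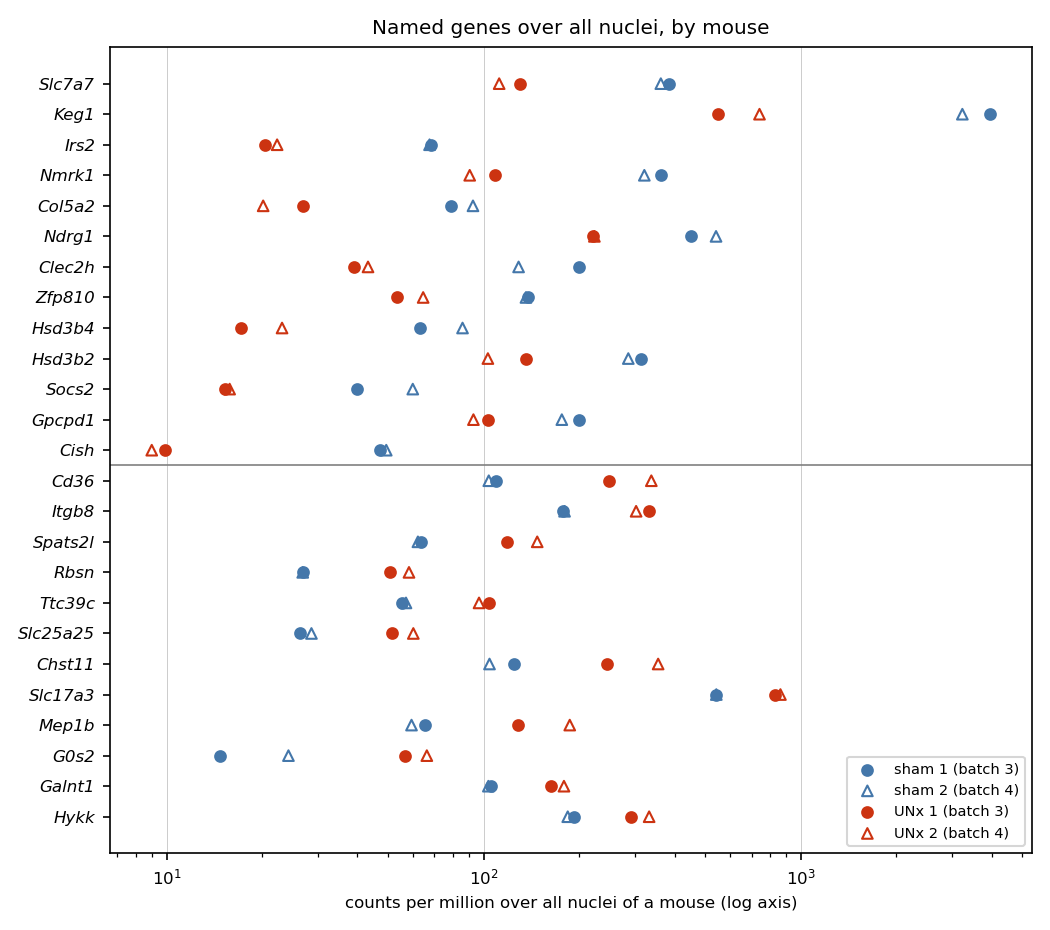
CPM over all nuclei (log axis) of the 12 genes named in each direction and of Cish, with sham in blue, UNx in red, batch 3 as filled circles and batch 4 as open triangles. In each gene above the line both UNx mice lie below both shams, and in each gene below the line both lie above them; this separation was part of the rule that named the 24 genes.

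Single enzymes of amino acid and NAD metabolism and a basolateral amino acid transporter fell. Keg1, kidney expressed gene 1, belongs to the glycine N-acyltransferase family and had the highest level of the genes that fell. It read 3957 and 3235 CPM in sham and 548 and 742 CPM in UNx, a log2 fold change of -2.49 ± 0.19 (adjusted p = 0.0157). Nmrk1, the nicotinamide riboside kinase of NAD synthesis, read 364 and 321 CPM in sham and 109 and 90.4 CPM in UNx (log2 fold change -1.79 ± 0.09, adjusted p = 0.0044). Slc7a7, a subunit of the exchanger that exports arginine and lysine into blood, read 385 and 362 CPM in sham and 129.9 and 112 CPM in UNx (log2 fold change -1.63 ± 0.09, adjusted p = 0.0044). In all 3 genes the UNx levels were well below the lower sham mouse, and the rule that named these genes required levels below it. Nmrk1 spans chr19:18631950-18652428 on the plus strand and Slc7a7 chr14:54369442-54417780 on the minus strand.

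Keg1 lies at chr19:12695786-12719902 on the plus strand. The 250 bases before its RefSeq start site (GRCm38.p6, chr19:12695540-12695789, plus strand) are shown because this gene carried the largest fall in level. Capitals mark the letters TTCNNNGAA, the palindrome that STAT factors can bind, which occurs at 173 and at 107 bases before the start.
Keg1: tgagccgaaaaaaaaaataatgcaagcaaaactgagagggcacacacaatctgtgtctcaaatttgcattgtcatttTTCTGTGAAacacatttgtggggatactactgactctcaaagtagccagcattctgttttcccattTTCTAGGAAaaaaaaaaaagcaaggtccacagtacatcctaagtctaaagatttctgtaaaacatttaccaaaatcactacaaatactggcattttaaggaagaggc
Of all 32851 RefSeq windows of this length, 7.02% hold these letters on either strand. Among the named genes with a window they occurred in 1 of 8 that fell (Keg1) and in 1 of 9 that rose (Slc17a3). A match is a description of letters, and binding was not measured.

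Keg1, Nmrk1 and 5 more of the 32 tested members of the gluconeogenesis and amino acid list fell, and 2 rose. Over all genes 0.536% fell and 0.501% rose, but the list was drawn up with earlier results of these data known, so this is no test of it. Gldc, the glycine decarboxylase of glycine breakdown, read 159.8 and 259 CPM in sham and 57.7 and 64.9 CPM in UNx (log2 fold change -1.73). Gpt2, a mitochondrial alanine aminotransferase, had a log2 fold change of -1.25 and Gatm, which starts creatine synthesis, of -0.88. Hao2, a peroxisomal hydroxy acid oxidase, fell from 37.5 and 57.5 CPM to 21.3 and 25.4 CPM, and Prodh2, which breaks down hydroxyproline, had a log2 fold change of -0.65. The 2 that rose were G6pc, the glucose-6-phosphatase that releases glucose, at 76.1 and 73.5 CPM in sham and 117 and 140.4 CPM in UNx, and Aldh1a7, an aldehyde dehydrogenase with a log2 fold change of 1.44 whose groups overlap. The list's median log2 fold change was 0.07, so the falls were of single members and the list as a whole lay near all genes. Ehhadh, an enzyme of peroxisomal fatty acid oxidation, fell from 212 and 209.6 CPM to 35.0 and 82.4 CPM (log2 fold change -1.97, adjusted p = 0.0460) and was the only called member of 28 on the fatty acid oxidation list. Ehhadh, G6pc and Prodh2 lost their call without adipocyte nuclei (adjusted p = 0.0522 each) and with the count minimum (adjusted p = 0.0740, 0.0712 and 0.0656), and Gatm, Hao2 and Aldh1a7 with the count minimum only (adjusted p = 0.0501, 0.0556 and 0.0656).

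Of the other named falls, Hsd3b4, a 3-beta-hydroxysteroid dehydrogenase, read 63.0 and 85.8 CPM in sham and 17.2 and 23.1 CPM in UNx (log2 fold change -1.88 ± 0.09, adjusted p = 0.0038). Hsd3b2, of the same family, read 313 and 286 CPM in sham and 135.7 and 103 CPM in UNx (log2 fold change -1.34). The copies of this family are alike in sequence, so their counts are uncertain where reads could be shared between them. Gpcpd1, which splits glycerophosphocholine, had a log2 fold change of -0.94. Ndrg1, a gene induced by hypoxia and other stress, read 450.5 and 541 CPM in sham and 221 and 224 CPM in UNx (log2 fold change -1.15, adjusted p = 0.0197). It was the only called member of the hypoxia list. Of the 19 tested members of that list 5 lay above and 2 below both shams, beside 10.7% and 10.5% of all genes. Clec2h, a C-type lectin gene, and Zfp810, a zinc finger gene, had log2 fold changes of -1.97 and -1.23.

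Not all falls were in proximal tubule genes. Trpm6, the magnesium channel of the distal convoluted tubule, read 123 and 152 CPM in sham and 60.1 and 68.5 CPM in UNx (log2 fold change -1.09 ± 0.09, adjusted p = 0.0157). Within distal convoluted tubule nuclei it read 2072 and 1010.2 CPM in sham and 1134 and 518 CPM in UNx, so the level was lower in the UNx mouse of each batch. Calb1, the calcium buffer calbindin of the same and the next segment, fell from 224 and 263 CPM to 118 and 154 CPM over all nuclei, a call lost with the count minimum (adjusted p = 0.0501). Both belong to the distal transport list, where 2 of 29 tested members fell and 0 rose, beside 0.536% and 0.501% of all genes. Beside these values, the share of distal convoluted tubule nuclei was also lower in UNx, as given below, and its part in the Calb1 value was not tested. Col5a2, a chain of fibrillar collagen V, read 79.0 and 92.6 CPM in sham and 26.9 and 20.2 CPM in UNx (log2 fold change -1.87 ± 0.16). Most of its counts in sham 1 came from thick ascending limb nuclei (71.3%), where it read 399 and 257 CPM in sham and 99.6 and 44.5 CPM in UNx.

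Cd36 and G0s2, which act in fatty acid uptake and storage, rose. Cd36, a receptor that carries fatty acids into cells, read 109.7 and 104 CPM in sham and 248 and 338 CPM in UNx, a log2 fold change of 1.44 ± 0.14 (adjusted p = 0.0236). G0s2, an inhibitor of the triglyceride lipase ATGL, read 14.7 and 24.2 CPM in sham and 56.3 and 66.2 CPM in UNx, a log2 fold change of 1.69 ± 0.14 (adjusted p = 0.0157). The groups stood apart in both genes, which the rule that named them required, and the UNx mouse of batch 4 was the highest. That mouse also held most of the adipocyte nuclei of the table. Without nuclei annotated as adipocytes the log2 fold changes with the block were 1.41 for Cd36 and 1.68 for G0s2 (adjusted p = 0.0284 and 0.0230). With the count minimum Cd36 lost its call (adjusted p = 0.0501) and G0s2 kept it (adjusted p = 0.0390). The summed level of the 8 adipocyte markers was 45.8 and 47.7 CPM in sham and 48.9 and 168 CPM in UNx, and 0 of its 7 tested members was called.

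Slc25a25, the carrier that exchanges ATP-Mg for phosphate across the inner mitochondrial membrane, read 26.3 and 28.6 CPM in sham and 51.4 and 60.0 CPM in UNx. Its log2 fold change was 1.02 ± 0.09 (adjusted p = 0.0197). The groups did not overlap, which the rule that named the gene required. One of its 3 RefSeq start sites has the letters TGACGTCA, the palindrome of the cAMP response element, 150 bases upstream, which 1.55% of all windows hold. That window (GRCm38.p6, chr2:32424067-32424316, minus strand) is shown with those letters in capitals because of the 12 named rises this gene had the largest log2 fold change in bulk kidney.
Slc25a25: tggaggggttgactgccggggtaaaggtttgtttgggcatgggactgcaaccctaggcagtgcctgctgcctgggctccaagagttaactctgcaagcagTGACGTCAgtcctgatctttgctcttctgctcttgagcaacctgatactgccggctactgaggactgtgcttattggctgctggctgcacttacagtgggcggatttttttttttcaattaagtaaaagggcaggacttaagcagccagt
No other named gene with a window held these letters, and nothing about a factor follows from that.

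Among the other named rises, Chst11, a chondroitin sulfotransferase, read 125 and 104 CPM in sham and 245 and 355 CPM in UNx (log2 fold change 1.37 ± 0.19, adjusted p = 0.0440). Mep1b, the brush border protease meprin beta, read 65.4 and 59.2 CPM in sham and 128 and 187 CPM in UNx (log2 fold change 1.31 ± 0.16, adjusted p = 0.0390). Itgb8, an integrin chain, read 177 and 180.0 CPM in sham and 332 and 303 CPM in UNx (log2 fold change 0.83). For these genes too each UNx mouse exceeded both shams, which the rule that named them required. Rbsn, an endosomal sorting protein, Spats2l and Ttc39c had log2 fold changes of 1.01, 1.07 and 0.84. Galnt1, which starts O-glycosylation, Hykk, a hydroxylysine kinase, and Slc17a3, an organic anion transporter, had 0.71, 0.72 and 0.65. Chst11, Slc17a3 and Hykk lost their call without adipocyte nuclei (adjusted p = 0.0522, 0.0529 and 0.0522), with log2 fold changes of 1.36, 0.65 and 0.73. With the count minimum the adjusted p was 0.0553 for Itgb8, 0.0505 for Spats2l, 0.0501 for Ttc39c, 0.0671 for Galnt1, 0.0684 for Mep1b, 0.0731 for Chst11 and Hykk and 0.0740 for Slc17a3.

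Transporters of the proximal tubule included calls in both directions. Of 29 tested members 4 rose and 2 fell, beside 0.501% and 0.536% of all genes, and the median log2 fold change was 0.14. Slco1a1, an organic anion uptake transporter, read 53.3 and 26.4 CPM in sham and 141 and 101 CPM in UNx (log2 fold change 1.66, adjusted p = 0.0170). Slc22a6, the organic anion transporter OAT1, had a log2 fold change of 1.22, Slc13a3, a dicarboxylate transporter, 0.90, and Slc16a9, a monocarboxylate transporter, 0.65. Slc5a12, a lactate transporter of S1, read 1480.3 and 825 CPM in sham and 837 and 465 CPM in UNx, a fall of each UNx mouse against its batch (log2 fold change -0.82, adjusted p = 0.0322) although the groups overlap. Slc22a6 and Slc13a3 also overlapped between groups, at 155 CPM in UNx 1 against 190.4 CPM in sham 2 for Slc22a6. The other fall was that of Slc7a7. Slc22a6, Slc13a3 and Slc16a9 lost their call without adipocyte nuclei (adjusted p = 0.0522 each), and with the count minimum these and Slc5a12 did (adjusted p = 0.0731 each and 0.0572). Slc5a12 and Slc7a7 stand on the S1 marker list, Slc13a3 on that of S2 and Slc22a6 on both. The 5 S1 markers summed to 2207 and 1782 CPM in sham and 1354 and 1239 CPM in UNx, and the 6 S2 markers to 866 and 1331 CPM in sham and 1334 and 1821 CPM in UNx. The shares of S1 and S3 nuclei are given below, and their part in these values was not tested.

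Of 13 tested mitochondrially encoded genes 4 rose with the block (mt-Nd1, mt-Nd3, mt-Nd5 and mt-Co2), beside 0.501% of all genes. For 0 of the 13 did both UNx mice lie outside the range of both shams. mt-Nd1, a subunit of respiratory complex I, read 259 and 1315 CPM in sham and 427 and 2506 CPM in UNx (log2 fold change 0.82 ± 0.11, adjusted p = 0.0407). Mitochondrial RNA lies outside the nucleus. The median share of mitochondrial UMI differed between batches and was also higher in the UNx mouse of each batch, as given above. That share is made of the counts of such genes, so the 4 calls are not separate from it. The log2 fold change of mt-Nd1 was -0.89 without UNx replicate 2 in the fit with the group alone. mt-Nd5 and mt-Co2 lost their call without adipocyte nuclei (adjusted p = 0.0522 and 0.0544), and with the count minimum mt-Nd1, mt-Nd5 and mt-Co2 did (adjusted p = 0.0712, 0.0731 and 0.0935). In 24 h bulk kidney 1 gene of the list was called higher and 2 lower, among them mt-Nd5 (log2 fold change -0.38, adjusted p = 0.0152). Nuclear-encoded subunits of the respiratory chain gave 0 calls among 40, with a median log2 fold change of -0.03 and no member outside the sham range.

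Further lists held 1 or 2 calls, beside 0.501% of all genes called higher and 0.536% called lower. NRF2 targets had 2 rises of 21, Abcc2, which exports conjugates into urine, at 639 and 433 CPM in sham and 1124 and 676 CPM in UNx, and Ugdh, which makes UDP-glucuronate, at 46.9 and 46.8 CPM in sham and 69.9 and 73.6 CPM in UNx. Il34, a macrophage growth factor, was the 1 rise of 22 tubular injury genes, at 60.7 and 64.7 CPM in sham and 97.2 and 128 CPM in UNx. Mtor, the kinase of growth control, was the 1 rise of 24 genes of growth factor and mTOR signalling, at 165 and 218 CPM in sham and 255 and 322 CPM in UNx. Abcc2, Ugdh and Mtor lost their call without adipocyte nuclei (adjusted p = 0.0522, 0.0522 and 0.0550), and these and Il34 with the count minimum (adjusted p = 0.0660 for Il34). Sets with 0 calls in nuclei were cholesterol synthesis, fatty acid synthesis, DNA replication, mitosis, unfolded protein response, ribosome assembly, ribosomal proteins, immediate early genes, clock, glucocorticoid response, G1 cyclins, interferon response and heat shock. In fatty acid synthesis 6 of 15 members lay above both shams and 0 below (median log2 fold change 0.37), beside 10.7% and 10.5% of all genes. The median difference of this list was 0.14 in batch 3 and 0.61 in batch 4. The batch 4 UNx mouse held 55 of the 68 adipocyte nuclei, whose part in these values was not tested.

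**Figure D2:**
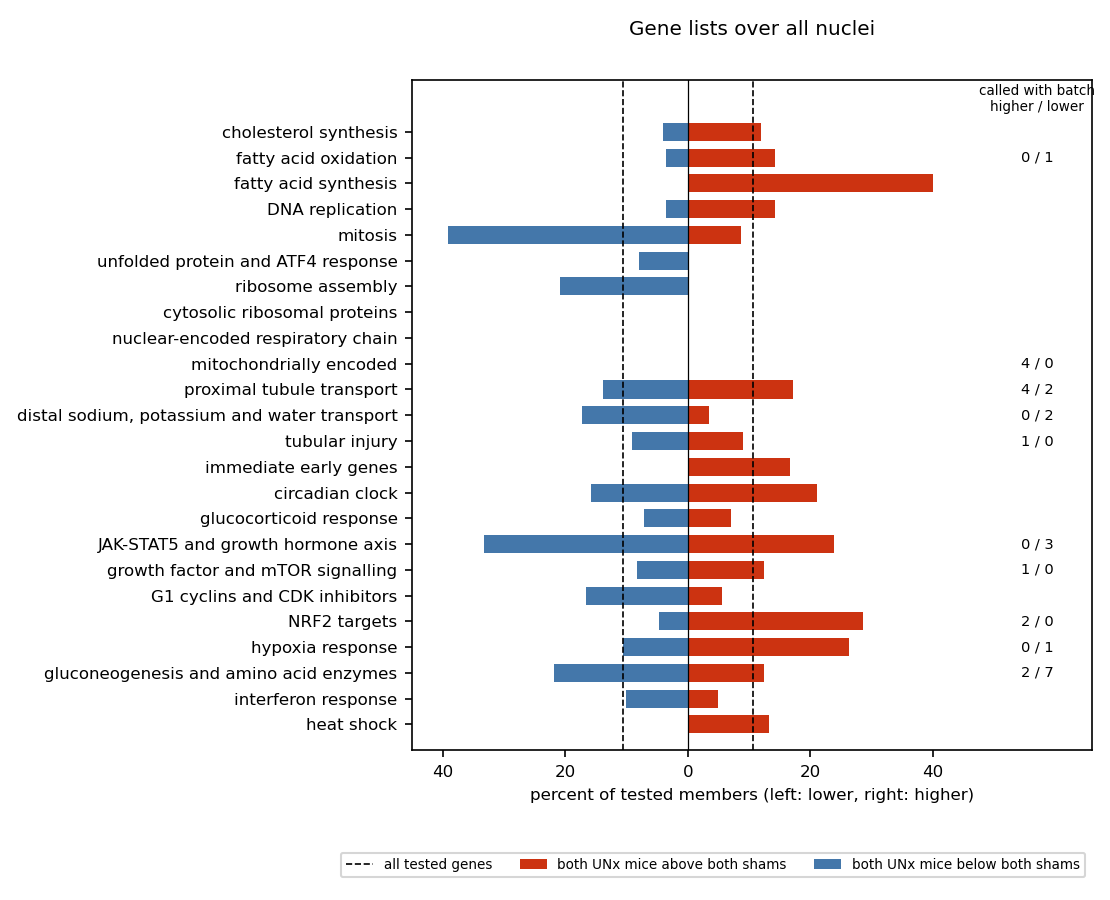
Percent of each list's tested members for which both UNx mice lay above (red, right) or below (blue, left) both shams, with dashed lines at 10.7% and 10.5%, the shares over all genes. Numbers at the right count the members called with the batch as a block, higher then lower, where there were any; the 13 mitochondrially encoded genes show 4 calls and no bar.

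Proliferation genes were sparse in the nuclei. Of 23 tested mitosis genes 9 lay below and 2 above both shams, beside 10.5% and 10.7% of all genes. The list had 0 calls and a median log2 fold change of -0.44. Cenpf, a kinetochore protein of dividing cells, read 1.23 and 1.15 CPM in sham and 0.270 and 0.378 CPM in UNx (adjusted p = 0.0825). Mki67, the proliferation marker, read 2.55 and 4.06 CPM in sham and 2.28 and 1.57 CPM in UNx (adjusted p = 0.364). DNA replication genes had 4 of 28 above and 1 below both shams, beside 10.7% and 10.5% of all genes, with a median of 0.11. Mcm6, a helicase subunit, read 11.1 and 11.54 CPM in sham and 14.9 and 20.5 CPM in UNx (adjusted p = 0.121).

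To see in which nuclei the differences lay, the sums were made again over proximal tubule nuclei and over all others. With the block, 419 of 17281 genes (2.42%) were called in proximal tubule nuclei, 182 of them among the 207, and 6 of 18709 (0.0321%) in all other nuclei. The unadjusted p was under 0.05 for 2663 and 2313 genes in these 2 fits, so the counts of calls differ far more than these do. Of the 207, 201 were tested in the other nuclei, and all 201 had the same direction there. Few calls outside the proximal tubule thus do not show that those nuclei did not change. Of the 24 named genes 21 were called in proximal tubule nuclei. These nuclei held 45.3% to 57.1% of a mouse's UMI in the sums from which the genes were named. The 182 and the 21 are thus no separate evidence. The 6 outside were Slco1a1, Nudt19, Ces2c, Odc1, Trpm6 and mt-Nd3, named here after their values were seen. Cish in proximal tubule nuclei read 61.8 and 53.3 CPM in sham and 0.777 and 3.86 CPM in UNx (log2 fold change -4.82, adjusted p = 0.0045), against 60.3 and 52.7 CPM and then 33.4 and 18.3 CPM in thick ascending limb nuclei. Proximal tubule nuclei held 68.1% and 50.5% of Cish counts in sham but 4.31% and 21.4% in UNx.

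The difference between the effects was itself tested with edgeR, each mouse set against itself, a test added after the data were seen. With no batch term 0 of 19281 genes were called (0%; 114 had an unadjusted p under 0.05). With a batch term for the proximal tubule 228 were called (1.18%), 139 with a more negative and 89 with a more positive effect there, and 14 of the 24 named genes were among them. Cish had a log2 difference of -3.64 (adjusted p = 0.00135), Irs2 of -1.97 (adjusted p = 7.0e-05), Keg1 of -1.44 (adjusted p = 0.0198), Socs2 of -1.24 (adjusted p = 0.00098) and Slc25a25 of 0.88 (adjusted p = 0.0170). Irs2 in proximal tubule nuclei read 107 and 92.9 CPM in sham and 18.3 and 16.7 CPM in UNx, while in thick ascending limb nuclei it read 32.1 and 40.1 CPM and then 23.9 and 19.0 CPM. For Cd36 the difference was 0.07 (adjusted p = 0.953).

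Keg1 and Cd36 also had counts in nuclei outside the proximal tubule. Keg1 in endothelial nuclei read 137 and 1699 CPM in the sham mice and 117 and 455 CPM in the UNx mice. In proximal tubule nuclei it read 7544 and 5046 CPM and then 946 and 991 CPM. Cd36 in distal convoluted tubule nuclei read 6.77 and 56.4 CPM in sham and 16.7 and 195 CPM in UNx. In both genes these nuclei read higher in the batch 4 mouse than in the batch 3 mouse of the same group. Free RNA, doublets and low expression by these nuclei were not tested as sources of these values.

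**Figure D3:**
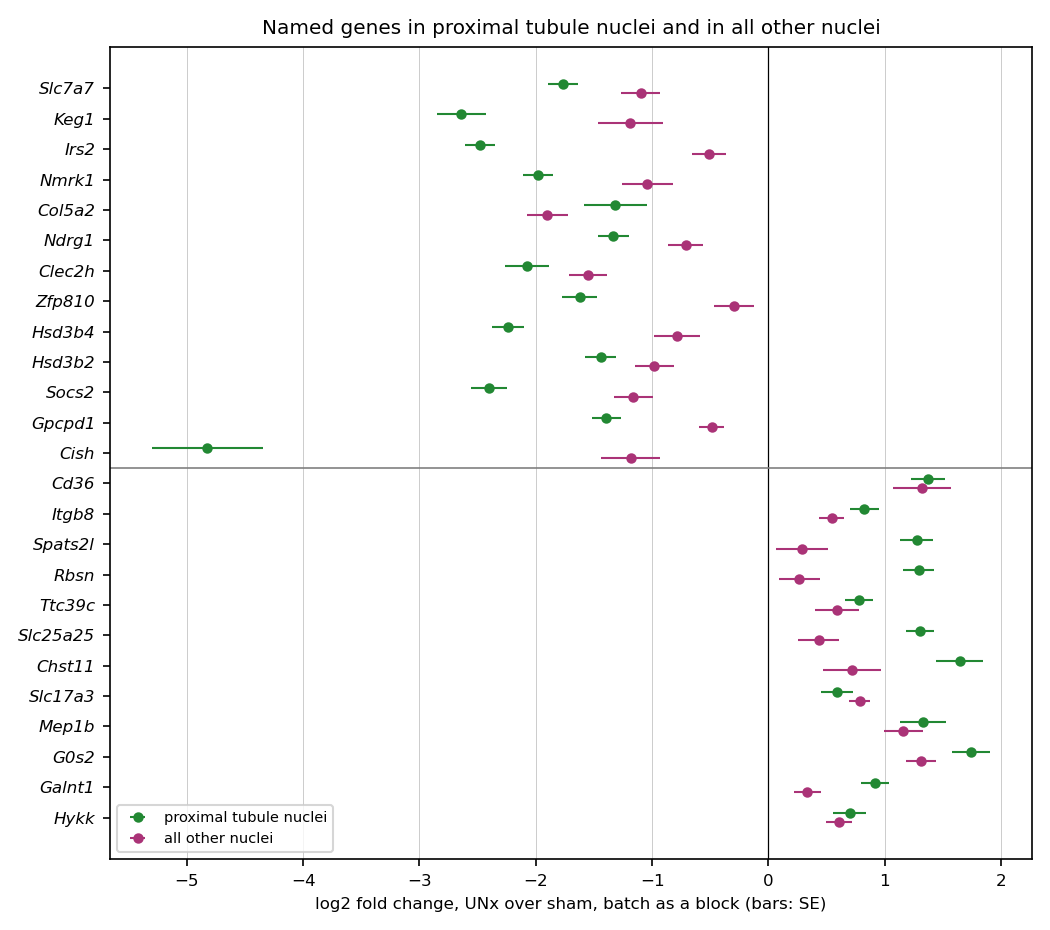
Log2 fold change of UNx over sham, with the batch as a block and bars of 1 SE, in proximal tubule nuclei (green) and in all other nuclei (purple) for the 24 named genes and Cish. Cish lies at -4.82 in proximal tubule nuclei and at -1.18 in the others, whereas Cd36 lies at 1.37 and 1.32.

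The next comparison was of composition, the share of a mouse's nuclei in each class of the authors' annotation. With the group as the only term edgeR called 0 of 30 classes (0%; lowest adjusted p = 0.939, and 0 with an unadjusted p under 0.05), and the DESeq2 Wald test also called 0. For 1 share alone an exact two-sided permutation test of 2 against 2 cannot go below p = 0.33. Both UNx shares lay above both shams in 5 classes (16.7%: PTS3, DTL3-ATL, ATL, MTAL and Adipo) and below them in 5 (16.7%: PTS1, MD, DCT, CNT and Fib). In the other 20 classes (66.7%) the groups overlapped. A random order of 2 against 2 mice separates the groups, in either direction, with a probability of 0.33, so these separations were no more frequent than that. A share of nuclei says nothing of the number of cells in the kidney, since each share depends on the others and on how nuclei were recovered.

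Proximal tubule nuclei as a whole took a like share in every mouse, 39.7% and 40.6% in sham and 38.3% and 38.4% in UNx. Within it PTS1, segment S1, held 18.0% and 20.4% of nuclei in sham and 14.9% and 12.8% in UNx (adjusted p = 0.939 and, with the block, 0.660). PTS3, segment S3, held 9.40% and 7.99% in sham and 9.75% and 13.5% in UNx, and PTS2 12.3% and 12.3% in sham and 13.6% and 12.1% in UNx. S1 was thus lower and S3 higher in both UNx mice, by an amount that the spread over 2 mice does not set apart. Of the 5 S1 markers Slc7a7 and Slc5a12 fell, Slc22a6 rose, and Slc5a2 and Slc6a19 were not called (adjusted p = 0.228 and 0.0659). Less S1 RNA per nucleus and fewer S1 nuclei cannot be told apart from the class shares, which rest on the same RNA. With 27 classes each weighted to their mean share over the mice, 545 genes were called with the block. Among them were 202 of the 207 and all 24 named genes. The other 3 classes, with 0 nuclei in some mouse, were left out. These weights rest on the same classes, so they cannot tell S1 RNA per nucleus and number of S1 nuclei apart either.

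Among the distal segments DCT, the distal convoluted tubule, held 5.95% and 8.63% of nuclei in sham and 4.87% and 5.79% in UNx. CNT, the connecting tubule, held 3.31% and 3.33% in sham and 2.70% and 2.67% in UNx. MTAL, the medullary thick ascending limb, held 10.0% and 7.31% in sham and 10.6% and 10.5% in UNx. The DCT shares of sham 1 and UNx 2 nearly met, as did the MTAL shares of sham 1 and both UNx mice. Fibroblast nuclei held 3.61% and 4.81% in sham and 3.07% and 3.57% in UNx, and macula densa nuclei, 10 to 16 per mouse, 0.300% and 0.492% in sham and 0.214% and 0.297% in UNx.

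Adipocytes were the only class called with the batch as a block (adjusted p = 0.00958), and the call rests on 1 library. The DESeq2 Wald test with the block called 0 classes (lowest adjusted p = 0.994). They numbered 5 and 2 nuclei in sham and 6 and 55 in UNx, or 0.0936%, 0.0757%, 0.116% and 1.63%. The leading genes of the class were those of fat, with Pparg, Plin1, Ebf2 and Cidea among them. With the group as the only term and UNx 2 left out, the log2 fold change of its share was 0.42, against 3.28 with all 4 mice. How much fat tissue a section held is not given in the labels.

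Several classes followed the batch more than the operation. Podocytes held 0.393% and 2.16% of nuclei in sham and 0.0388% and 1.75% in UNx. The last class of the annotation, which has no cell type in its name and is led by Gm42418, held 0.0562% and 1.02% in sham, 0 of 5151 nuclei in UNx 1, which allows a share of up to 0.0582%, and 2.67% in UNx 2. The endothelial classes EC1 and EC2 held 5.97% and 4.77% in sham 1 and 5.65% and 5.77% in UNx 1, but between 2.50% and 3.18% in the batch 4 mice. Macrophage nuclei were 14 and 9 in the batch 3 mice and 0 in both batch 4 mice, which allows up to 0.114% in sham 2 and 0.0891% in UNx 2. For Podo the UNx mouse of each batch was the lower, with adjusted p = 0.633 with the block.

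**Figure D4:**
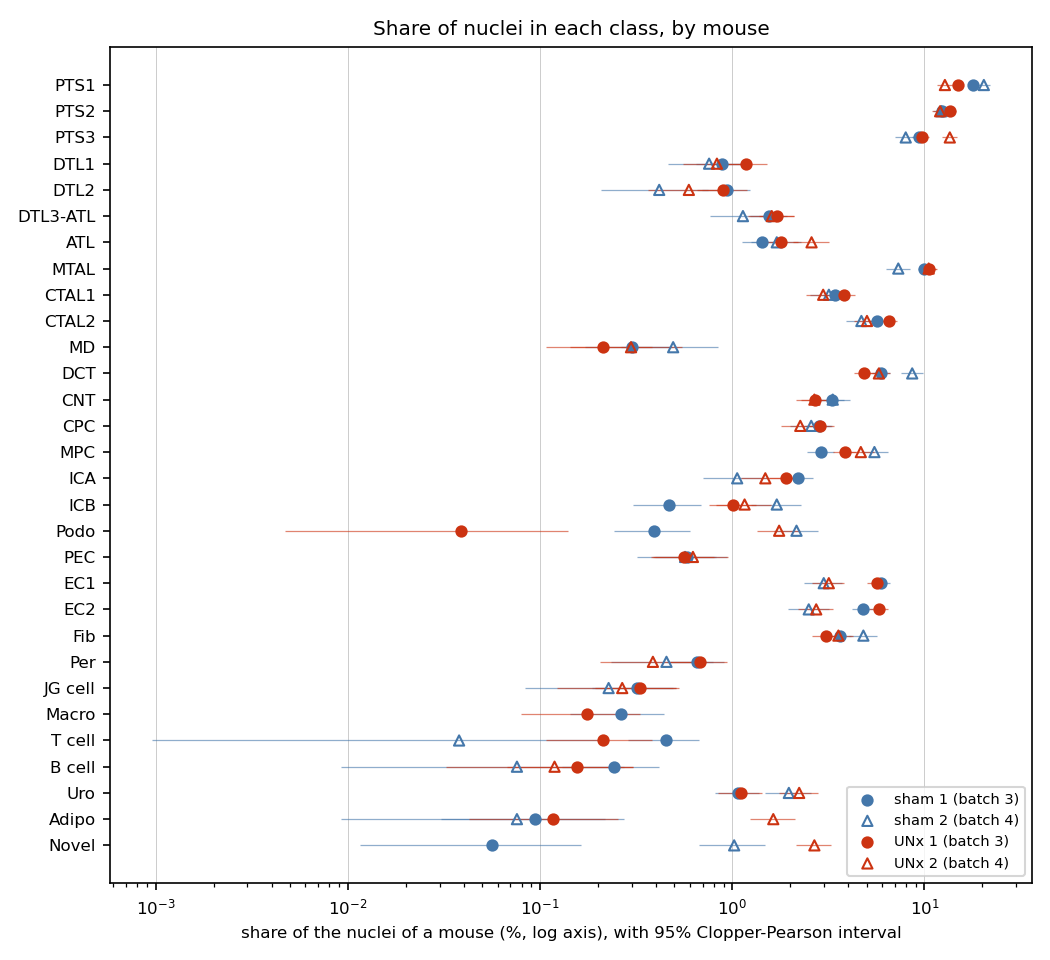
Share of a mouse's nuclei in each of the 30 annotated classes (percent, log axis) with its 95% Clopper-Pearson interval, which covers counting error only; shares of 0 (Macro in both batch 4 mice, T cell in UNx 2, the last class in UNx 1) are not drawn. PTS1 lies lower in both UNx mice (red) than in both shams (blue), while Podo, EC1 and EC2 separate batch 3 (circles) from batch 4 (triangles).

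The finer form of the annotation splits each proximal tubule segment into a plain class and a class named for nephrectomy. Of proximal tubule nuclei, 0.943% and 2.24% in the sham mice and 99.3% and 94.8% in the UNx mice carried a UNx name. Because these classes were made from the expression of the same nuclei, this is a description and no test. The sham nuclei with such a name numbered 20 and 24. In UNx 1 14 of 1971 proximal tubule nuclei kept a plain name and in UNx 2 67 of 1292.

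The 24 h bulk kidneys, 6 sham and 6 UNx mice with no animal in common with the nuclei, give the same contrast in whole-tissue RNA. In bulk samples fewer cells of a type and less RNA per cell cannot be told apart. edgeR called 3852 of 14104 genes there (27.3%). Of the 207 nuclear calls 164 were tested in bulk and 55 called, 40 in the same direction and 15 in the opposite one. The 40 are 24.4% of the nuclear calls tested in bulk and 1.08% of the 3717 bulk calls among genes tested in both. The sign was shared by 103 of the 164 (62.8%), beside 53.0% of all 13492 genes tested in both, over which Pearson's r of the log2 fold changes was 0.11 as a description across genes, which are not replicates.

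Some genes that fell most in nuclei were higher in bulk. Cish in bulk read from 6.98 to 35.3 CPM in sham (median 18.9) and from 28.1 to 44.5 CPM in UNx (median 37.1), a log2 fold change of 0.84 ± 0.27 (adjusted p = 0.0325), against -2.35 in nuclei. Keg1 read from 974 to 1319 CPM in bulk sham (median 1124) and from 1109.7 to 1772 CPM in bulk UNx (median 1439), a log2 fold change of 0.36 ± 0.11 (adjusted p = 0.0231), against -2.49 in nuclei. The ranges of the 2 bulk groups overlapped in both genes. Gldc (0.38, adjusted p = 0.0222) and Calb1 (0.67, adjusted p = 0.0014) were higher in bulk as well, and Hykk, which rose in nuclei, was lower (-0.25, adjusted p = 0.0233). Irs2 had a bulk log2 fold change of 0.50 ± 0.19 (adjusted p = 0.0667) and Socs2 of 0.12 ± 0.40 (adjusted p = 0.860).

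Others went the same way in both. Slc25a25 in bulk read from 44.1 to 64.2 CPM in sham (median 53.0) and from 68.5 to 183 CPM in UNx (median 130.2), with no overlap and a log2 fold change of 1.25 ± 0.18 (adjusted p = 0.00037). Rbsn (0.35, adjusted p = 0.0116) and Ttc39c (0.30, adjusted p = 0.0175) were also higher. Slc7a7 read from 110.4 to 135 CPM in bulk sham (median 122) and from 95.4 to 110.4 CPM in bulk UNx (median 104), a log2 fold change of -0.24 ± 0.06 (adjusted p = 0.0083). Ndrg1 (-0.38, adjusted p = 0.0390) and Hsd3b4 (-0.44, adjusted p = 0.0494) were also lower. Of the 12 named rises 3 were called higher and 1 lower in bulk, and of the 12 named falls 3 were called lower and 1 higher, beside 14.2% of bulk genes called higher and 13.1% called lower. Except for Slc25a25, each of these called bulk changes was smaller than the change over nuclei.

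The cholesterol synthesis and mitosis lists had many calls in bulk and none in nuclei. In bulk 20 of 25 cholesterol synthesis genes were called higher and 14 of 22 mitosis genes were, against 0 of 25 and 0 of 23 in nuclei. The bulk median log2 fold change was 0.50 for cholesterol synthesis and 0.79 for mitosis, and the nuclear medians were 0.31 and -0.44. For mitosis the nuclear median thus had the opposite sign, with 9 of 23 members below both shams, beside 10.5% of all genes. With 2 mice per group the nuclei resolve less than the 6 mice per group of bulk, and a missing call does not show that a list did not move.

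**Figure D5:**
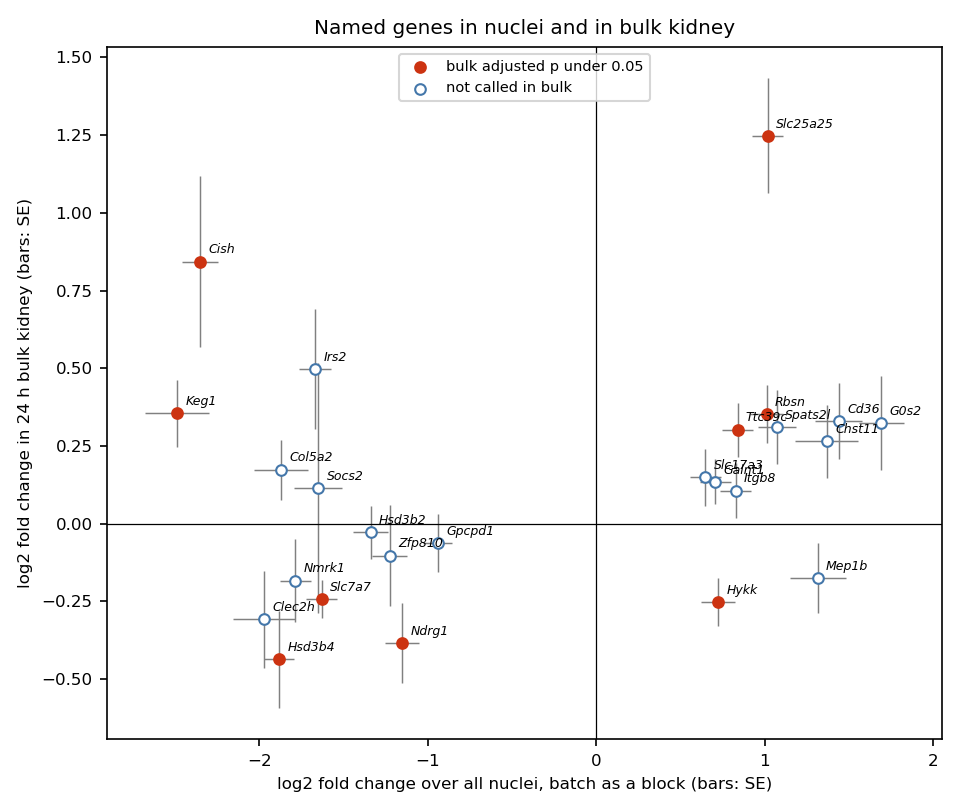
Log2 fold change over all nuclei (x axis, batch as a block, n = 2 per group) against that in 24 h bulk kidney (y axis, n = 6 per group) for the 24 named genes and Cish, with bars of 1 SE and filled red points for genes called in bulk. Slc25a25 lies high on both axes, while Cish and Keg1 lie at -2.35 and -2.49 in nuclei and above 0 in bulk.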

How the data were processed

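The deposited nuclear table holds estimated counts (UMI per gene and nucleus, not normalized) that the authors made with alevin and Seurat against mm10, per the submitters' processing notes. The deposited bulk table holds estimated counts that the authors made with Salmon 1.5.0 (FastQC 0.11.8, R 4.10, GRCm39), per the same notes. How nuclei were filtered and doublets treated is not given in the sources used here. Doublets were not called again. Classes are the authors' annotation. Of the nuclear values above 0, 13.9% are not whole (tolerance 1e-06).

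Sums over all nuclei of a mouse were rounded and tested with edgeR 4.0.16 (R 4.3.3; two-sided quasi-likelihood test after filterByExpr, with TMM factors). A call is an adjusted p under 0.05 (Benjamini-Hochberg, over all genes tested). DESeq2 1.42.0 and limma 3.58.1 voom were alternatives. SE is the log2 fold change over the root of the F statistic. Shares were tested as counts of nuclei per class with the mouse's total as library size, in classes with at least 10 nuclei in all. The fits were tested on simulated data.

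The labels give the replicate number and the batch together, so the numbers pair a sham with a UNx mouse of the same batch. Deviations from the group means of same-numbered mice correlated at r = 0.842 over 19975 genes. The labels give each of these samples a mouse of its own. In fits without the block the p-values thus measure the spread between mice of a group, which includes any technical spread between their libraries. With the block, differences shared by the mice of a batch are taken out. The p-values with the block rest on how far the difference of UNx from sham varies between batches, and on spread borrowed from other genes. No libraries agreed within sampling noise (chi-square per gene at least 46.1).

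Named genes are, per direction, the 12 with the lowest edgeR p without the block among genes whose groups do not overlap and whose log2 CPM averages 5 or more, passing over predicted genes, and the member with the lowest p of each of the 24 lists, 1 of which is not reported here. The members, lists and rule were chosen with earlier results of these data known. Gene positions are from GENCODE M21 (GRCm38), promoter windows from RefSeq, where 17 of the 24 genes matched. Intervals and limits at a count of 0 (3 nuclei) cover counting error only.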

Additional observations from a re-analysis of the deposited data

Results flagged for a closer look

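For 19 genes the change in proximal tubule nuclei differed from that in all other nuclei of the same mice in edgeR with a batch term for the tubule, a test added after the data were seen that calls 0 genes without that term. The log2 difference was more negative in the proximal tubule for Cish (-3.64), Ehhadh (-2.31), Irs2 (-1.97), Gbp7 (-1.51), Hsd3b4 (-1.50), Keg1 (-1.44), Zfp810 (-1.32), Socs2 (-1.24), Xbp1 (-0.94), Nmrk1 (-0.94), Gpcpd1 (-0.90), Slc7a7 (-0.67) and Ndrg1 (-0.62). It was more positive for Rbsn (1.05), Spats2l (1.00), Chst11 (0.94), Slc25a25 (0.88), Il34 (0.70) and Galnt1 (0.59). Xbp1 and Gbp7 were not called over all nuclei.

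In bulk kidney 2 of 88 groups of 6 mice held a sample far from the others, and chance flags about 1 in 20 groups. For Irs2, sham 1 read 35.1 CPM and the next sham 20.6 CPM, a gap of 0.680 of the group's range. For Gpcpd1, sham 2 read 19.4 CPM and the next 16.0 CPM, a gap of 0.633 of the range.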

How the results depend on the processing

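Over all nuclei the count of called genes was 0 without the block and 0 under every alternative without it except the DESeq2 Wald test (25), leaving out each mouse in turn included (0 to 0). With the replicate block it was 207. Combinations with the block, chosen after seeing the data, gave 291 with DESeq2 size factors, 583 with the DESeq2 Wald test, 303 with limma voom, 717 with no filter on low counts, 41 with at least 50 counts in every mouse of 1 group (10 higher, 31 lower), 290 without mitochondrially encoded genes, 545 with classes weighted to their mean share, 419 in proximal tubule nuclei only, 6 without them and 106 without adipocyte nuclei (45 higher, 61 lower). Without TMM factors it gave 781, of which 246 were higher and 535 lower, with a median over all genes of -0.08 instead of -0.01. The cause of these differences was not tested. All 207 kept their direction in every setting with all mice and the block that tested them, and 184, 205, 206 and 194 kept it without sham 1, sham 2, UNx 1 and UNx 2.

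Called classes were 0, but 1 with the replicate block (Adipo) and 1 in the finer annotation (UNx PTS2, a class named for nephrectomy). The difference between proximal tubule and other nuclei had 0 calls and, with the replicate block, 228. Bulk calls stayed between 3186 (replicate block) and 4065 (DESeq2). Bulk mice share only a number: same-numbered pairs correlated at -0.19 to 0.05, and 0 of 6 shams correlated best with its own number.

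Values that changed sign were those of genes without a call or that overlap between groups: Xbp1 0.069 without proximal tubule nuclei (0.068 with the replicate block), Rpl4 -0.24 and Sdha -0.14 without sham replicate 1, and Rpl4 -0.82, Sdha -0.30 and mt-Nd1 -0.89 without UNx replicate 2, with highest values of 1.44, 0.61 and 2.52 without sham replicate 2; the cause was not tested.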

Other observations

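Calls not on any list included falls of Slc7a12, an amino acid transporter gene (log2 fold change -2.57, adjusted p = 0.016), Aacs, which activates acetoacetate (-1.82), Mylip, which marks lipoprotein receptors for breakdown (-1.51), and Il7, a lymphocyte growth factor (-1.45), and rises of Ace, the angiotensin-converting enzyme (1.07), Bmp5 (1.66) and Mpped1 (2.59). For Il7 and Ace the groups overlap, and all 7 were chosen after their values were seen. Without adipocyte nuclei Mylip, Ace and Bmp5 lost their call (adjusted p = 0.0562, 0.0553 and 0.0502), and with at least 50 counts in every mouse of 1 group Slc7a12 and Mpped1 kept theirs (adjusted p = 0.0390 and 0.0214) and the other 5 did not. In 24 h bulk kidney Mylip was lower (-0.74, adjusted p = 0.0030) and Bmp5 (0.80, adjusted p = 0.0196) and Mpped1 (0.76, adjusted p = 0.0074) higher, while Ace (-0.17, adjusted p = 0.131) and Il7 (0.01, adjusted p = 0.991) were not called.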
